A study of Drosophila melanogaster with 6 samples.

Results

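Genes of the hormones that set fuel storage in the adult fly were followed across 6 whole-body expression arrays of Drosophila melanogaster. The set was chosen by gene symbol and holds 10 genes: the decretin hormone gene Lst (limostatin), the adipokinetic hormone gene Akh and its receptor gene AkhR, the insulin-like peptide genes Ilp2, Ilp3, Ilp5 and Ilp6, the insulin-binding protein gene ImpL2, the insulin receptor gene InR, and Thor, which encodes a repressor of translation. The platform annotation assigned 8 probe sets to 7 of the 10 genes, out of 11982 genes on the array with a probe set of their own. Ilp3, Ilp6 and Thor are not analysed here. Where a gene had several probe sets the one with the highest mean signal was used, which concerned AkhR with 2.

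There were 3 genotypes. Flies carrying gyc76c[revert] served as the control, gyc76c[KG03723] is a mutant allele of Gyc76C, whose product is a guanylate cyclase that sits in the membrane as a receptor, and spz[rm7] is a mutant allele of the gene for Spätzle, the ligand of the Toll receptor in immunity. They are written revert, KG03723 and rm7. Adult flies of each genotype received an injection of either saline (PBS) or the Gram-positive bacterium Staphylococcus saprophyticus and were collected after 12 hours, with 1 array for each of the 6 combinations. All flies were therefore injected, each allele is represented by 1 line, and the labels give neither the sex nor the number of flies per array. The only control, revert, is named for gyc76c. In every comparison of rm7 with revert, the spz allele and the genetic background of its line cannot be told apart.

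In flies, insulin-like peptides made by a small group of brain neurosecretory cells promote growth, storage and reproduction, and Akh, made by the neighbouring corpora cardiaca, mobilises fat and sugar from the fat body in the manner of glucagon. Limostatin is also made in corpora cardiaca cells, rises on starvation and suppresses the release of insulin-like peptides. ImpL2 binds insulin-like peptides in the haemolymph and lowers their action on InR. Infection is known to shift fuel use in flies, and the fat body, which is the target of both Akh and insulin, is also the main source of secreted immune peptides.

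Values are MAS5 signals, a linear measure of probe set brightness scaled per array by the authors. Ratios were taken after dim signals had been raised to a floor of 42.7, which is the 40th percentile over the arrays, and a ratio against an array at the floor is given as a bound ("at least"). With 1 array per group a ratio of 2 arrays has no error and no test. The only test was an additive limma fit of genotype and injection over all 6 arrays and 9540 genes, with p-values adjusted over all of them and called under 0.05. It has 2 residual degrees of freedom, and a response that differs between genotypes enters its error.

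The arrays differed in ways that touch the results below. The brightest Gyc76C probe set, which is annotated jointly with CG42637, read 2092 and 2004 in revert after PBS and bacteria, 1085 and 1234 in KG03723, and 1523 and 1583 in rm7. The spz probe set read between 813 and 1122 on all arrays and so checks no label. The summed signal of 22 testis genes was lowest on the revert bacteria array (17134, against 19828 to 31555 on the others), that of 17 accessory gland genes ranged from 46124 to 85856, that of 15 eggshell genes from 90524 on the rm7 bacteria array to 144398, and that of 4 female fat body genes from 91270 to 115301. Genes of male and of female tissue were thus measured on every array. Flight muscle genes summed to 8604 to 15922, photoreceptor genes to 9910 to 16597, gut genes to 65476 to 92913 and blood cell genes to 1071 to 1709. The flight muscle, gut and accessory gland sums were each lowest on the rm7 PBS array. All 7 flight muscle genes were lower in rm7 than in revert after PBS (median log2 ratio -0.77). After bacteria 6 were lower and 1 higher (median -0.31). The part of these shifts in the rm7 values below was not tested. In whole bodies, fewer cells of a type and less RNA per cell cannot be told apart.

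Lst was higher after bacteria in every genotype, by more than 2-fold in revert and KG03723. It read 362 in revert after PBS and 1580 after bacteria, 660 and 1884 in KG03723, and 1062 and 1236 in rm7. The lowest array was the revert PBS array and the highest the KG03723 bacteria array, 5.21-fold apart, and both rm7 arrays lay between the PBS and the bacteria arrays of the other genotypes. Bacteria-injected flies thus had 4.37-fold more Lst signal than PBS-injected flies in revert, 2.86-fold more in KG03723 and 1.16-fold more in rm7. Of the 10105 genes that exceeded the floor on 1 or more arrays, 3 had a larger ratio in revert and 12 in KG03723, whereas in rm7 Lst ranked 2609.

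**Figure D1:**
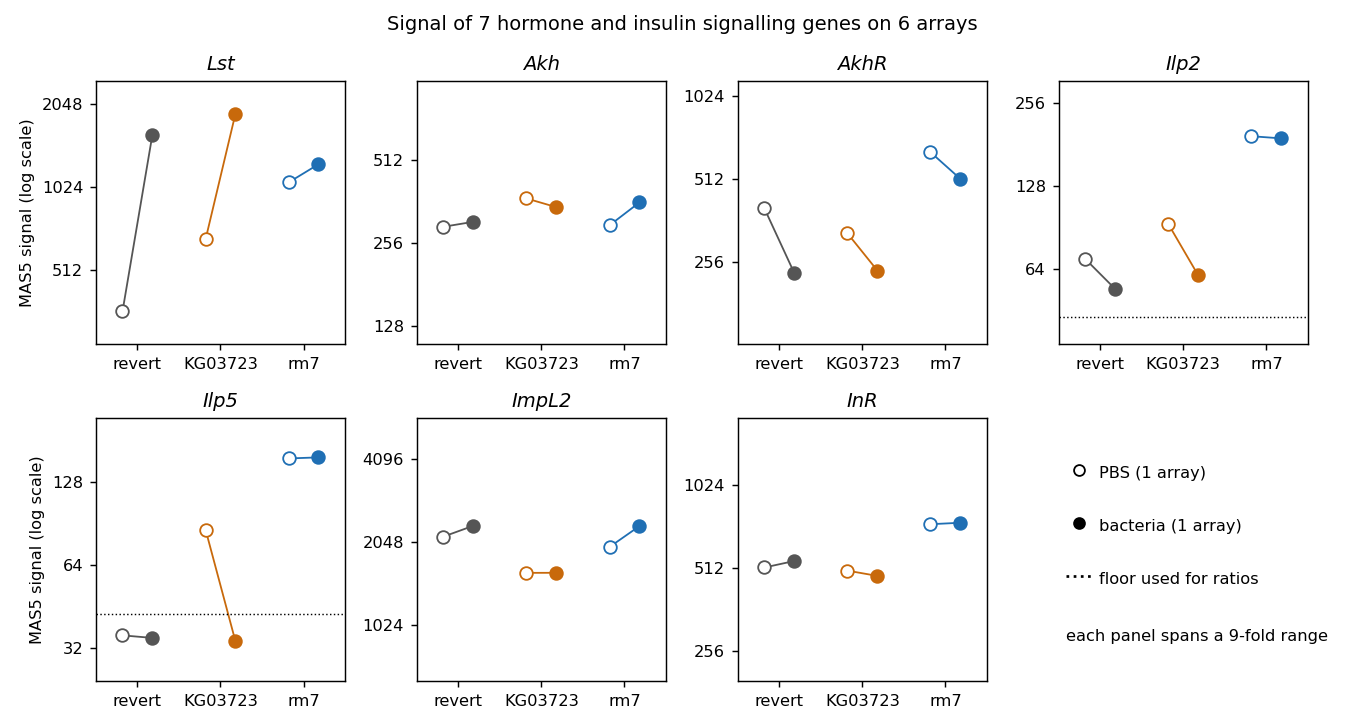
MAS5 signal (log scale) of the 7 measured genes on each of the 6 arrays, by genotype, with open circles for PBS and filled circles for bacteria. Each point is 1 array and the dotted line is the floor of 42.7. Lst climbs steeply after bacteria in revert and KG03723 and little in rm7, and Ilp2 and Ilp5 stand highest in both rm7 arrays.

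The same values can be read between genotypes. After PBS, Lst was 1.82-fold higher in KG03723 and 2.94-fold higher in rm7 than in revert. After bacteria it was 1.19-fold higher in KG03723 and 1.28-fold lower in rm7. The log2 response to bacteria was 2.13 in revert, 1.51 in KG03723 and 0.22 in rm7. The rm7 response minus the revert response was -1.91 on the log2 scale, and 13 of the 10105 genes had a more negative difference. That difference was not tested, since each response rests on 2 arrays.

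In the additive fit the bacterial effect on Lst was 1.29 ± 0.32 (SE, log2, limma adjusted p = 0.997, unadjusted p = 0.00543), with all 3 genotypes above 0. Across the tested genes 0% were called for bacteria, with 347 genes at an unadjusted p under 0.05. The residual standard deviation of Lst, 0.689 on the log2 scale, was larger than that of 98.8% of tested genes. The limma fit shrank the residual variance of Lst from 0.475 to 0.155, and the SE and p rest on the smaller value. Lst passed for bacteria without the revert PBS array (0.87, limma adjusted p = 0.00533), without the revert bacteria array (0.87, adjusted p = 0.0163) and without both (adjusted p = 0.00724). In these fits the effect is the mean of the KG03723 and rm7 responses of 1.51 and 0.22. Without the revert bacteria array the fitted effect on Lst was 1.19 in KG03723 and 1.23 in rm7. There revert is its PBS array alone, assumed to vary like the others, and the 1 residual degree of freedom comes from KG03723 and rm7, whose responses differ. Over all 6 arrays those effects were 0.56 ± 0.39 (adjusted p = 0.897) and 0.60 ± 0.39 (adjusted p = 0.54), and without the revert PBS array they were -0.07 and -0.03.

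Lst was set beside the antimicrobial effector genes downstream of Toll. All 8 measured Toll-responsive peptide genes of 14 listed were higher after bacteria in each genotype, with a median log2 ratio of 0.96 in revert, 1.15 in KG03723 and 0.61 in rm7. The Bomanin gene BomBc2 read 9958 and 26640 in revert, 13100 and 23770 in KG03723, and 1773 and 2942 in rm7. In rm7 after PBS the 8 genes had a median log2 ratio to revert of -1.82, whereas Lst stood at 1.55. After bacteria the peptide genes stood at -2.51 and Lst at -0.35. In rm7, therefore, the PBS level of Lst was above the control level while that of the peptide genes was below it. The ratios of Lst and of the peptide genes share the same revert arrays.

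**Figure D2:**
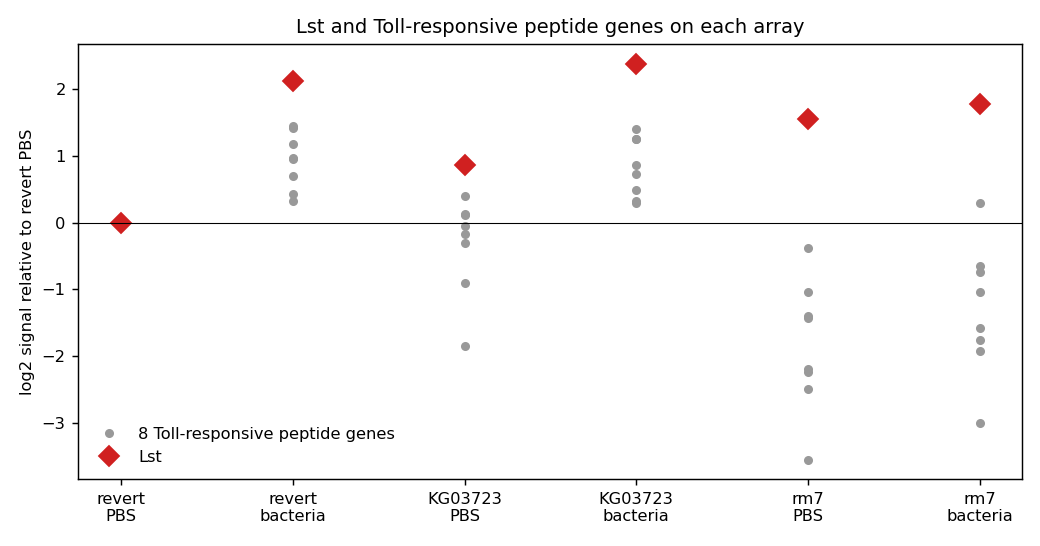
log2 signal of Lst (red diamonds) and of 8 Toll-responsive peptide genes (grey) on each array, relative to the revert PBS array. All 8 peptide genes lie below 0 on the rm7 PBS array, where Lst lies at 1.55, and all but Mtk do on the rm7 bacteria array.

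Genes with an array profile like that of Lst were sought among 1701 genes above the floor on all 6 arrays and at least 2-fold variable. The 5 closest over the 6 arrays were CG34054 (Pearson r = 0.90), spirit, a protease gene of the cascade upstream of Spätzle (0.85), CG15385 (0.81), CG12520 (0.78) and the noncoding RNA gene lncRNA:alphagamma-element:CR32865 (0.76). CG34054 read 115 and 194 in revert, 174 and 234 in KG03723, and 189 and 243 in rm7. The arrays share their scaling and body composition, so these correlations describe 6 arrays only.

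Of the 10 protein-coding genes next to Lst in the gene order of RefSeq assembly Release 6, all had a probe set and 9 were above the floor on 1 array or more. None of them was 2-fold apart after bacteria in any genotype. Of all genes, 4.01% were in revert, 1.34% in KG03723 and 0.95% in rm7, so the count is near these shares. The log2 ratios of the 9 for bacteria ran from -0.35 to 0.73 in revert, from -0.63 to 0.97 in KG03723 and from -0.39 to 0.46 in rm7. The immediate neighbour CG4927 read 75.3 and 124.5 in revert, 71.1 and 139 in KG03723, and 55.8 and 35.5 in rm7. It was higher after bacteria in revert and KG03723, as Lst was, and was under the floor on the rm7 bacteria array, where Lst was not.

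The receptor for limostatin on insulin-producing cells, encoded by PK1-R, was under the floor on all 6 arrays, at 27.3 to 34.7. Of the 6 related receptors and peptides listed, PK1-R included, 2 had a probe set of their own. The second was Capa, a neuropeptide gene of the same family, which was above the floor. The others of this list were not measured. Capa read 119 and 90.5 in revert, 133.5 and 133.4 in KG03723, and 117 and 104 in rm7, and was not called for any effect.

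Akh itself changed little. It read 293 and 306 in revert after PBS and bacteria, 371 and 345 in KG03723, and 297 and 359 in rm7, so its highest array was 1.27-fold above its lowest. The fitted effect of bacteria was 0.08 (95% confidence interval -0.32 to 0.48, limma adjusted p = 1). Akh and Lst are both products of the corpora cardiaca, and on the arrays where Lst differed 5.21-fold Akh stayed within this narrow range.

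AkhR, the receptor through which Akh acts on the fat body, was lower after bacteria in every genotype and higher in rm7 than in revert. It read 401 and 234 in revert, 325 and 238 in KG03723, and 640 and 512.4 in rm7. Bacteria-injected flies had 1.72-fold, 1.36-fold and 1.25-fold less signal in the 3 genotypes. A lower value in all 3 genotypes was found for 8.58% of genes, and a higher one, as for Lst, for 9.79%. The fitted effect of bacteria was -0.52 ± 0.17 (SE, log2, limma adjusted p = 1, unadjusted p = 0.0185), which did not pass. Between genotypes, AkhR was 1.60-fold higher in rm7 than in revert after PBS and 2.19-fold higher after bacteria. The fitted rm7 effect of 0.91 ± 0.21 narrowly missed the threshold (limma adjusted p = 0.0565) and passed it under 3 other treatments of low signals (adjusted p = 0.031 to 0.0492). It did not pass with any single array left out (adjusted p = 0.0523 to 0.391, the highest without the revert bacteria array, where the effect was 0.71). The effect was 0.45 (adjusted p = 0.378) when the second probe set, which was under the floor on all arrays at 17.7 to 33.5, was averaged in.

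The fat body markers moved with AkhR in part. The summed signal of 9 fat body genes was 32176 after PBS and 19693 after bacteria in revert, 44478 and 24340 in KG03723, and 34641 and 34789 in rm7. It was lower after bacteria in revert and KG03723, as AkhR was, and not in rm7, where AkhR was. Most of the sum came from apolpp and FASN1. Lsp2, the gene of this list that changed most, read 2431 and 217.5 in revert, 5719 and 362 in KG03723, and 1583 and 787 in rm7. In rm7, 5 of the 7 genes above the floor were higher after bacteria and 2 were lower, Lsp2 among the latter. The larval fat body genes Fbp1 and Fbp2 were under the floor on all arrays. The part of this marker shift in the AkhR values was not tested. The genes with the profile closest to AkhR over the 6 arrays were CG2816 (r = 0.99), the protein kinase C gene Pkc53E (0.98), the astrocyte gene alrm (0.97), Srr (0.965) and CG41520 (0.96). Of the 10 protein-coding genes next to AkhR in the RefSeq order, 8 were above the floor on 1 array or more. In revert, 2 of the 8 were at least 2-fold lower after bacteria (log2 ratios -1.80 to 0.22), where 346 of 10105 genes were. In rm7 over revert, 2 were at least 2-fold higher after bacteria (-0.71 to 1.55), where 548 of 10105 genes were. After PBS 0 were 2-fold apart in rm7 over revert (-0.77 to 0.48), where 6.67% of all genes were. Whether the AkhR values share in these shifts was not tested.

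**Figure D3:**
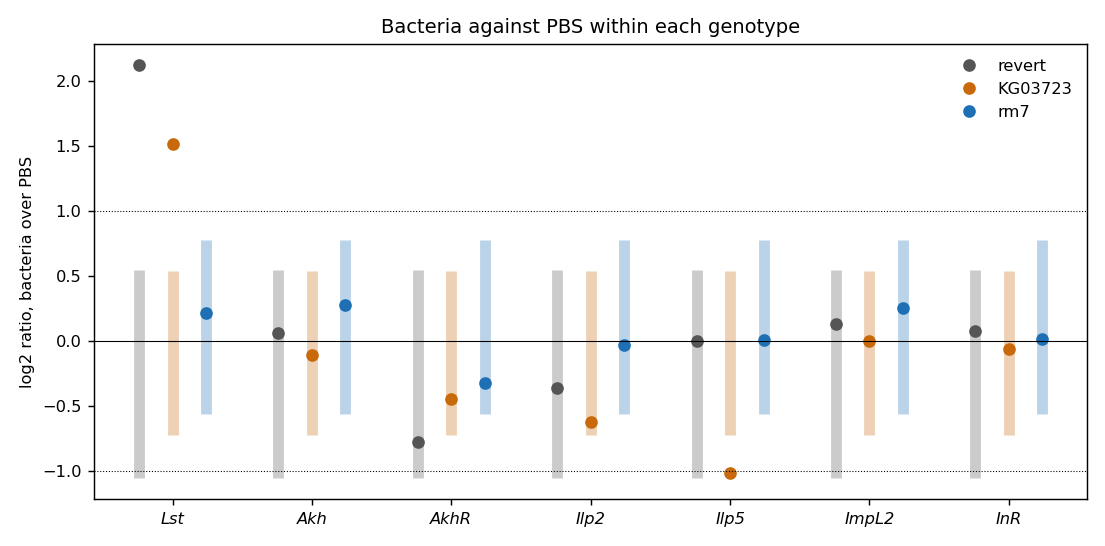
log2 ratio of bacteria over PBS for the 7 genes in revert (grey), KG03723 (orange) and rm7 (blue). Each point is 1 pair of arrays, shaded bars span the central 95% of all 10105 genes in that comparison, and dotted lines mark 2-fold. Lst lies above the bars in revert and KG03723 and within the bar in rm7.

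Counted over the 7 measured genes, 1 was at least 2-fold apart after bacteria in revert (Lst), where 4.01% of all genes were, and 0 in rm7, where 0.95% were. In KG03723 there were 2, Lst and Ilp5, against 1.34% of all genes. Lst belonged to the 0.218% of genes that were at least 2-fold higher in both revert and KG03723. In the additive fit 0 of the 7 genes passed for bacteria, and 2, Lst and AkhR, had an unadjusted limma p under 0.05.

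The insulin-like peptide genes Ilp2 and Ilp5 stood above revert in rm7 flies whichever injection was given. Ilp2 read 69.5 and 54.1 in revert, 93.05 and 60.6 in KG03723, and 194 and 190.4 in rm7. Both rm7 arrays were above all 4 other arrays, by 2.79-fold against revert after PBS and 3.52-fold after bacteria. Ilp5 read 35.7 and 34.9 in revert, under the floor, 86.3 and 34.0 in KG03723, and 156 and 158 in rm7. It was at least 3.66-fold higher in rm7 than in revert after PBS and at least 3.69-fold higher after bacteria. These 2 were the genes at least 2-fold higher in rm7 after both injections, as were 1.59% of all genes.

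Both passed the additive fit as higher in rm7. The effect was 1.65 ± 0.27 for Ilp2 (SE, log2, limma adjusted p = 0.0182) and 1.88 ± 0.34 for Ilp5 (limma adjusted p = 0.024), where 5.61% of tested genes were called. The fitted size for Ilp5 depends on the floor, and Ilp5 entered the fit through the 3 arrays on which it was high. Neither passed without the rm7 PBS array (adjusted p = 0.0622 for Ilp2 and 0.097 for Ilp5) or without the rm7 bacteria array (0.129 and 0.178), with effects of 1.42 to 2.14. Both signals are dim, at the 33rd and 29th percentile of mean signal among the genes, and with the floor raised to 241 neither gene could be compared.

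Within rm7 the PBS and bacteria arrays were close, with ratios of bacteria to PBS of 0.98 for Ilp2 and 1.01 for Ilp5. In KG03723 both were lower after bacteria than after PBS, Ilp2 by 1.53-fold and Ilp5 by at least 2.02-fold, and in revert Ilp2 was lower by 1.28-fold. After PBS, Ilp5 in KG03723 exceeded revert by at least 2.02-fold, and it was under the floor in both after bacteria. These KG03723 values rest on the single PBS array. The fitted effect of bacteria was -0.34 ± 0.22 for Ilp2 and -0.33 ± 0.27 for Ilp5 (limma adjusted p = 1 for both).

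Ilp2 and Ilp5 lie in one cluster of insulin-like peptide genes. Of the 12 other protein-coding genes between them or within 5 steps on either side in the RefSeq order, apart from the set itself, 8 exceeded the floor on 1 or more arrays. None of the 8 was 2-fold apart between rm7 and revert. Of all genes, 6.67% were after PBS and 8.29% after bacteria, so the count is near these shares. The log2 ratios of the 8 ran from -0.14 to 0.47 after PBS and from -0.43 to 0.89 after bacteria. CG43897, which lies between Ilp2 and Ilp5, read 3951 and 4425 in revert and 4227 and 6074 in rm7.

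The 5 genes closest to Ilp2 in profile over the 6 arrays were CG31778 (r = 0.997), the kynurenine formamidase gene KFase, CG5550, CG8012 and CG34134, the last at 0.985. CG31778 read 95.9 and 58.0 in revert, 148 and 85.4 in KG03723, and 515 and 486 in rm7. KFase read 168 and 149 in revert, 203 and 149.8 in KG03723, and 316 and 288.5 in rm7. All 5 were highest on both rm7 arrays, with the KG03723 PBS array next, as Ilp2 was. They were selected by correlation with Ilp2 over these same 6 arrays, so the shared order follows from the selection.

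Neuronal and neuroendocrine genes were examined beside the brain-derived Ilp2 and Ilp5. The summed signal of 4 neuronal marker genes was 1149 and 864 in revert, 1081 and 882 in KG03723, and 1325 and 1283 in rm7, most of it from the synaptic gene cpx. The median fitted rm7 effect over the 4 genes was -0.27, so the sum and the median differ in sign. The highest array of the sum was 1.53-fold above the lowest. Among 23 of 36 listed signals to insulin-producing and corpora cardiaca cells that were above the floor, 13 were higher and 7 lower in rm7 than in revert after PBS (median log2 0.06, against 0.02 for all genes). After bacteria 18 were higher and 4 lower (median 0.38, against 0.03 for all genes). The part of these shifts in the Ilp2 and Ilp5 values was not tested. Of the 19 genes of that list in the fit 1 was called in rm7, near the 5.61% of all genes. It was grnd, which encodes a receptor for the tumour necrosis factor Eiger, and it was lower in rm7. The signals were 168 and 148 in revert, 169 and 139 in KG03723, and 73.2 and 69.9 in rm7 (-1.14 ± 0.25, limma adjusted p = 0.0472). The call was lost without any single array (adjusted p = 0.0963 to 0.153).

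**Figure D4:**
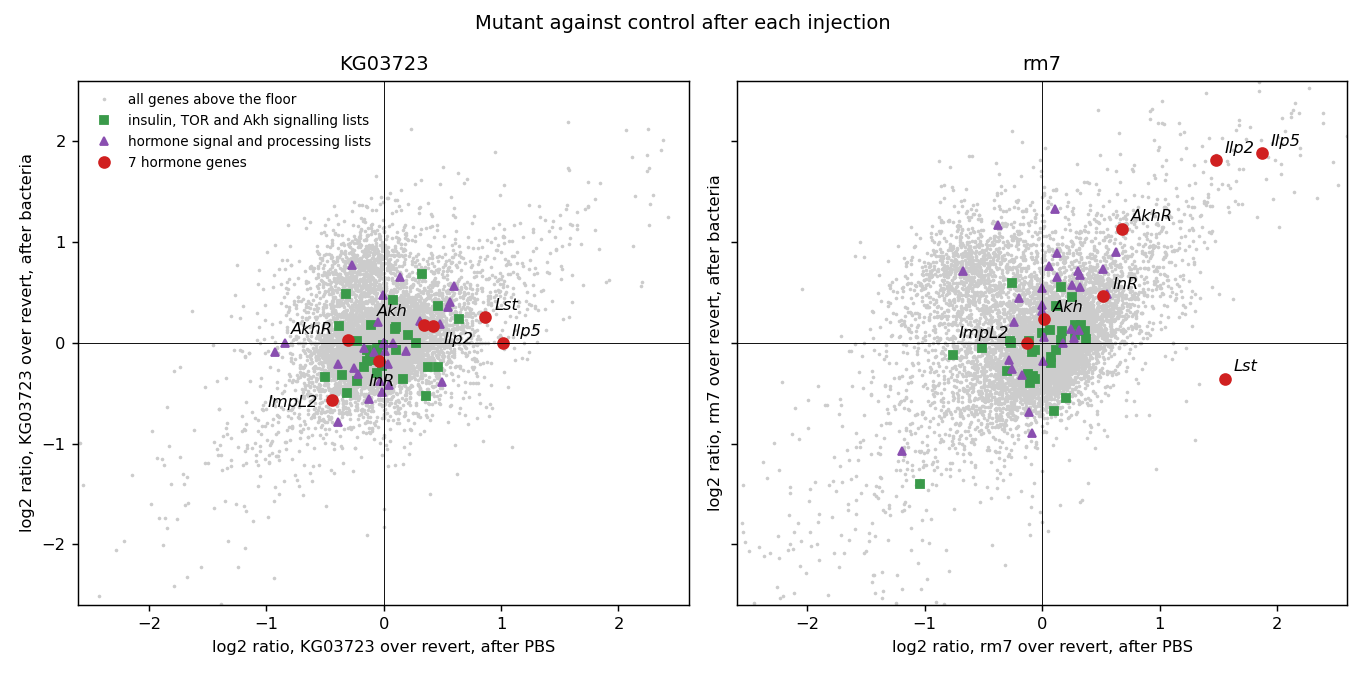
log2 ratio of KG03723 (left) and rm7 (right) over revert, after PBS (x axis) and after bacteria (y axis), for all genes above the floor (grey), 2 signalling lists (green), 2 hormone signal and processing lists (purple) and the 7 genes (red). The axes stop at 2.6, which leaves out 22 genes on the left and 81 on the right. Ilp2 and Ilp5 lie at the upper right in rm7, and Lst lies far to the right and below 0.

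Genes for making and releasing peptide hormones were not called. In rm7 0 of 7 tested genes passed, where 5.61% of all genes did, with 2 at an unadjusted limma p under 0.05, as were 1647 of 9540 genes. After bacteria 2 of the 7 exceeded revert by at least 2-fold in rm7, as did 548 of 10105 genes. In that comparison 4 of the 7 were higher and 3 lower (median log2 0.89, against 0.03 for all genes). After PBS 4 were also higher and 3 lower in rm7 than in revert (median 0.003, against 0.02). The part of this shift in the Ilp2 and Ilp5 values was not tested. 7B2, whose product helps activate a prohormone convertase, read 324 and 204 in revert, 358 and 321 in KG03723, and 350 and 514 in rm7. Cadps, a gene for the release of dense-core vesicles, read 310 and 188 in revert, 163 and 176 in KG03723, and 238 and 422 in rm7. In both genes the rm7 bacteria array was the highest of all. The revert bacteria array was the lowest for 7B2, whereas for Cadps both KG03723 arrays were lower still. 7B2 passed as higher in rm7 when the revert PBS array was left out (limma adjusted p = 0.0421), against 0.289 over all 6 arrays.

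The receptor gene InR was also somewhat higher in rm7. It read 514 and 542 in revert, 500 and 479 in KG03723, and 737 and 746.5 in rm7. Both rm7 arrays were above the other 4, by 1.44-fold against revert after PBS and 1.38-fold after bacteria, and the other 4 lay close together. The fitted effect of 0.49 ± 0.15 did not pass (limma adjusted p = 0.149, unadjusted p = 0.0158). For bacteria the effect on InR was 0.01 (95% confidence interval -0.29 to 0.31).

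ImpL2, the insulin antagonist, was lowest in KG03723. It read 2144 and 2347 in revert, 1584 and 1585 in KG03723, and 1966 and 2341 in rm7. Both KG03723 arrays were below all others, 1.35-fold below revert after PBS and 1.48-fold below after bacteria. The fitted KG03723 effect of -0.50 ± 0.11 did not pass (limma adjusted p = 0.133, unadjusted p = 0.00335). It was the only one of the 7 genes with an unadjusted p under 0.05 for KG03723, and 0 of the 7 were called, where 1.37% of tested genes were.

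**Figure D5:**
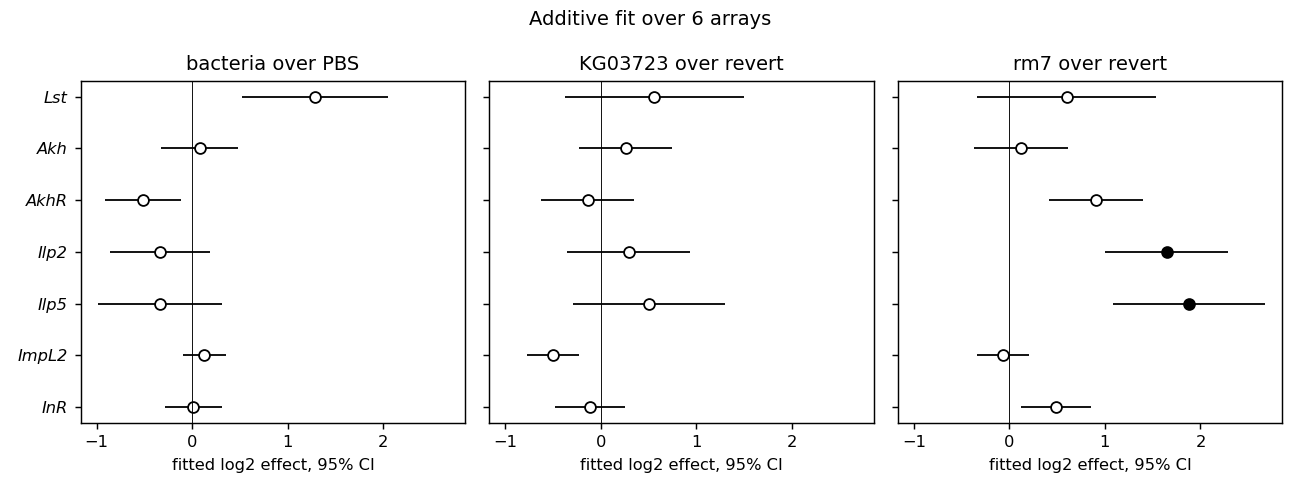
Fitted log2 effects of bacteria, KG03723 and rm7 for the 7 genes in the additive limma fit over 6 arrays, with 95% confidence intervals that are not adjusted for multiple testing. Filled points passed at an adjusted p under 0.05, which holds for Ilp2 and Ilp5 in rm7 alone. Ilp5 entered the fit only through the 3 arrays on which it was high.

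At the level of 2-fold, rm7 differed from revert in 3 of the 7 genes after PBS (Lst, Ilp2 and Ilp5), where 6.67% of all genes did, and in 3 after bacteria (AkhR, Ilp2 and Ilp5), where 8.29% did. KG03723 differed in 1 gene after PBS, Ilp5, where 3.05% of genes did, and in 0 after bacteria, where 3.4% did. The median log2 ratio of the 7 genes was 0.68 in rm7 after PBS and 0.46 after bacteria, against 0.02 and 0.03 for all genes. In KG03723 it was 0.34 and 0.03. In the fit 2 of the 7, Ilp2 and Ilp5, were called in rm7, where 5.61% of all genes were. Ilp5 entered the fit only through the 3 arrays on which it was high, both rm7 arrays among them, so its call lends this count no weight. An unadjusted limma p under 0.05 was found for 4 of the 7, as for 1647 of 9540 genes.

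Genes of the pathway inside the cell were counted in the same way. Of 32 listed genes of insulin and TOR signalling, 18 were above the floor somewhere and 17 were tested. With limma 0 of the 17 passed for bacteria, KG03723 or rm7, and 0, 1 and 0 had an unadjusted p under 0.05. Of all 9540 genes 0%, 1.37% and 5.61% passed, and 347, 813 and 1647 had an unadjusted p under 0.05. None of the 18 was 2-fold apart in any of the 7 comparisons, where 0.95% to 8.29% of all genes were. The insulin receptor substrate gene chico read 475 to 578 over the 6 arrays, and the transcription factor gene foxo, which insulin signalling holds in check, read 406 to 526. The kinase gene Akt read 1043 and 1473 in revert, 1031 and 1258 in KG03723, and 1197 and 1012 in rm7, so that it was higher after bacteria in 2 genotypes and lower in rm7.

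Among 13 tested genes of Akh signalling and fuel mobilisation, of 21 listed, 1 was called in rm7 and 0 for bacteria or KG03723, each with 1 at an unadjusted limma p under 0.05. Of all tested genes 5.61% were called in rm7, 0% for bacteria and 1.37% in KG03723, so the count is near the share of all genes. The called gene was Crtc, which encodes a coactivator of CREB that acts in energy balance. It read 727 and 693 in revert, 657 and 661 in KG03723, and 352 and 263 in rm7, with both rm7 arrays below the others (-1.22 ± 0.18, limma adjusted p = 0.0121). Without the rm7 bacteria array the effect was -1.03 (adjusted p = 0.0539). The fat lipase gene bmm read 1096 to 1425 over the 6 arrays, and the trehalose synthesis gene Tps1 read 3721 and 2812 in revert, 5808 and 3305 in KG03723, and 4159 and 4121 in rm7.

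Of 7 tested genes that respond to fasting or to foxo, 0 passed for any effect, with 0, 2 and 1 at an unadjusted limma p under 0.05 for bacteria, KG03723 and rm7, where 0%, 1.37% and 5.61% of all genes passed and 347, 813 and 1647 of 9540 had such a p. The lipase gene Lip4 read 189 and 255 in revert, 467 and 257 in KG03723, and 318 and 402 in rm7. tobi, a glucosidase gene regulated by both insulin-like peptides and Akh, read 8403 and 6367 in revert, 5393 and 3333 in KG03723, and 3755 and 4401 in rm7. All 4 mutant arrays were below both control arrays. Its rm7 effect was -0.85 ± 0.20 and did not pass (limma adjusted p = 0.0692). With 1 array left out, the effect ran from -1.24 (without rm7 bacteria) to -0.46 (without rm7 PBS). The gut genes Mal-A1 and Mal-A6 had the same order of mutant and control arrays. Mal-A1 read 12230 and 11040 in revert, 9031 and 6855 in KG03723, and 6105 and 6578 in rm7. Of 6 tested gut genes, 3 were called lower in rm7 (betaTry, Mal-A1 and Mal-A6) and 0 higher, where 5.61% of all genes were called. The part of this gut shift in the tobi values was not tested.

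Ilp8, a relaxin-like peptide gene outside the set, read 770 and 707 in revert, 291 and 450 in KG03723, and 400 and 210 in rm7. Both mutants were below revert after each injection. The fitted effect was -1.03 ± 0.35 in KG03723 (limma adjusted p = 0.387) and -1.35 ± 0.35 in rm7 (adjusted p = 0.0835), and the rm7 effect passed without any single revert or KG03723 array (adjusted p = 0.00587 to 0.0279). It did not pass without the rm7 bacteria array (-0.76, adjusted p = 0.282) or without the rm7 PBS array (-1.94, adjusted p = 0.0567). Ilp8 is known to be expressed in ovarian follicle cells. The summed eggshell signal was lowest on the rm7 bacteria array, as Ilp8 was, and highest in KG03723, where Ilp8 was below revert. Single eggshell genes split. In KG03723 over revert, 10 of the 15 were higher and 5 lower after PBS, and all 15 were higher after bacteria. In rm7 over revert after bacteria, 6 were higher and 9 lower. The part of ovary content in the Ilp8 values was not tested. Ilp7 was under the floor on all arrays, and Sdr, which encodes a secreted decoy of the insulin receptor, read 168 to 210.5.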

How the data were processed

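The authors deposited 1 intensity per probe set and array on a linear scale, which the submitters' processing notes name as MAS5, with no version. The intensities have a 2% trimmed mean of 500 on each of the 6 arrays, and 58.9% to 61.0% of probe sets exceeded the floor. Of 18952 probe sets, 183 controls were left out, 13647 had 1 gene in the platform annotation, 402 several and 4720 none. 13544 gene identifiers were found in the RefSeq table of Release 6, and 0 symbols changed. Groups came from the sample titles. With 1 array per group, the error behind the p-values comes only from departures from additivity, shrunk by limma toward a trend over all genes. It holds no spread between replicate arrays.

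The additive fit used limma 3.58.1 in R 4.3.3 on log2 signals of genes exceeding the floor on 3 or more arrays. It had a variance trend and Benjamini-Hochberg adjustment. The fit was also run on simulated data with independent normal errors and additive effects. Those data lack the departures from additivity that make up the error here, so they do not check its p-values. The naming rule took every member and up to 4 genes a list (those called, then those 2-fold apart). It also took the 5 genes most alike to each member that varied 2-fold. The genes chico, foxo, Akt, bmm, Tps1, Sdr, Capa, PK1-R, Ilp7, cpx, apolpp, CG4927 and CG43897 were named after their values were seen. Members and lists were chosen with earlier results of these data known. Array numbers limit the precision. Alternatives covered normalization, floor, pseudocount of 32, probe set choice, threshold, filter and left-out arrays.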

Additional observations from a re-analysis of the deposited data

Results flagged for a closer look

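The Lst level in rm7 relative to revert ran in opposite directions after the 2 injections, at least 1.2-fold each way. The log2 ratio was 1.55 after PBS and -0.35 after bacteria, a difference of -1.91. Each ratio is 1 array against 1 array, and the difference was not tested. Over the alternatives of normalization, floor, pseudocount and probe set, the ratio after PBS stayed above 0 and the ratio after bacteria below 0.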

How the results depend on the processing

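Ratios of the 7 genes moved by more than the gene's residual standard deviation in 17 of 294 recomputed values, and 0 called ratios changed sign. The Ilp5 bounds in KG03723 lie just over 2-fold. The count in KG03723 for bacteria fell from 2 to 1, and for KG03723 over revert after PBS from 1 to 0, with quantile normalization, a floor at the 60th percentile and the pseudocount. That floor, 241, lies above all Ilp2 and Ilp5 signals, and it left 1 gene 2-fold apart between rm7 and revert after PBS, 1 after bacteria and 1 called for rm7 (AkhR). At 1.5-fold, 2 genes were apart in revert for bacteria and 2 in KG03723 over revert after PBS. At 3-fold, 0 were apart in KG03723 for bacteria, 0 in KG03723 over revert after PBS and 1 in rm7 over revert after PBS. For rm7, 1 gene was called without the variance trend (Ilp2, with Ilp5 at limma adjusted p = 0.0513), and 1 among genes above the floor on all 6 arrays, where Ilp5 is not tested. Leaving out 1 array changed how many of the 7 genes were called. Those counts are not read here, since no share of all genes in the same fits stands beside them. Without the revert PBS array, the revert bacteria array or both, the fitted bacterial effect on Lst was 0.87, against 1.29 over all 6 arrays. The call of grnd was lost in 11 alternatives. Fits without 1 array have 1 residual degree of freedom.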
